A study of Mus musculus with 6 samples.

Results

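The muscle miRNAs of the miR-1 and miR-133 families repress a small set of well-studied mRNAs, and 7 of these were examined in hearts of mouse embryos at embryonic day 11.5: Cdc42, Rhoa, Igf1, Igf1r, Hdac4, Twf1 and G6pdx. The members were all probes that the platform annotation assigns to these genes. It held 7 such probes, for 5 of the 7 genes, out of 21676 probes listed with 1 gene. Cdc42, Igf1 and Twf1 had 1 probe each, and Rhoa and Igf1r had 2 each. Hdac4 and G6pdx had no probe in that table and were not analysed here.

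Gene expression was read on 6 single-colour CodeLink oligonucleotide arrays. Of these, 3 held RNA of Dicer mutant hearts, in which a Cre placed in the Nkx2.5 locus inactivates Dicer, and 3 held RNA of control hearts. Nkx2.5 drives the Cre in cardiac progenitors, so cells of the heart outside that lineage would keep the gene. The labels do not state the control genotype, the Dicer allele, the strain or any pooling of embryos. Whether replicate arrays came from different embryos is not stated either, so the p-values describe array-to-array spread, which can be technical.

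A miRNA is made from a hairpin precursor, which Dicer cuts into a short duplex. One strand of it then guides an Argonaute protein to mRNAs, mostly through pairing of its seed, bases 2 to 8, and the mRNA is translated less and often degraded. miR-1 and miR-133 are transcribed together in cardiac and skeletal muscle, and miR-206 and miR-133b form a related pair best known from skeletal muscle. miR-1 and miR-206 share a seed, as do miR-133a and miR-133b.

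The annotated hairpins of miR-206 and miR-133b are shown because they contain the precursor that Dicer cuts, with the mature 3p strand in capitals. Both lie on the plus strand of chromosome 1 in GRCm38.p6, from RefSeq, at chr1:20679010-20679082 and chr1:20682769-20682887.
Mir206 hairpin: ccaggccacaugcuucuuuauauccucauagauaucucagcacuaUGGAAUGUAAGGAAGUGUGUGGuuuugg
Mir133b hairpin: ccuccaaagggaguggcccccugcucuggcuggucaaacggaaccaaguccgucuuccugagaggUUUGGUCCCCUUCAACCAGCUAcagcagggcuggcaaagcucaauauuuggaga

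The mature strands carry the seeds that define the 2 families, here in capitals. An mRNA site complementary to the miR-206 seed reads ACAUUCC, and one complementary to the miR-133b seed reads GGACCAA. Transcript sequences were not used here, so such sites were not counted in the members.
mmu-miR-206-3p: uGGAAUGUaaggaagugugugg
mmu-miR-133b-3p: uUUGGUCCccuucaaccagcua

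The arrays did not separate by genotype alone. The first principal component of the tested probes held 54.3% of their variance. On it control 3 scored -20.3, between mutant 1 at -18.1 and mutant 2 at -29.7, while mutant 3 scored 5.68 and controls 1 and 2 scored 36.5 and 25.9. Member results that rest on mutant 3 or control 3 are therefore also given without that array. For the other genes this was done only in part.

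Dicer1 was lower in the mutant hearts. Its level on the log2 scale of normalized intensity was 6.71, 6.73 and 6.70 in mutants 1 to 3, against 7.83, 7.64 and 7.71 in controls 1 to 3. The difference was -1.02 ± 0.09 (log2, mutant minus control ± SE, limma adjusted p = 0.0372). In the authors' normalized intensity, which has no offset, it read 0.681 to 0.702 in the mutants and 1.97 to 2.33 in the controls, a wider gap in ratio. Whether this probe lies in the deleted part is not known here, so it checks the labels only in part.

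Cdc42, a small GTPase that organises filopodia and cell polarity and a reported target of miR-133 and miR-1, gave the largest difference among the members, and it was towards lower levels in the mutant. Its log2 levels were 11.12, 11.14 and 11.25 on the mutant arrays, against 11.62, 11.61 and 11.81 on the control arrays. Every mutant array was lower than every control array, with a gap wider than the range within either group. The mean was 11.17 ± 0.07 in the mutants and 11.68 ± 0.11 in the controls (SD, n = 3 each). The mutant level was 0.703 of the control level (95% interval 0.595 to 0.83), a log2 difference of -0.51 ± 0.10 (SE). It did not pass over all 17557 probes tested (limma adjusted p = 0.167, unadjusted p = 0.00166), where its p ranked 174th. In the authors' deposited normalized intensity the probe read 27.7 to 32.3 in the mutants and 39.8 to 44.1 in the controls. In a bulk heart sample, fewer cells of a type and less RNA per cell cannot be told apart.

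Rhoa, the GTPase of stress fibres and actomyosin contraction and a reported miR-133 target, was measured by 2 probes listed under the same accession. The brighter one (number 7619) read 11.27, 11.34 and 11.67 on the mutant arrays, against 11.46, 11.36 and 11.06 on the control arrays. The groups overlapped, with mutant 3 highest and control 3 lowest. Its difference was 0.13 ± 0.15 (log2 ± SE), a fold of 1.1 with a 95% interval of 0.849 to 1.42 (limma adjusted p = 0.804). That value rested on those arrays, since it was 0.01 without mutant 3 and 0.02 without control 3.

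The dimmer Rhoa probe (number 15827) read 10.50, 10.38 and 10.66 on the mutant arrays, against 10.33, 10.18 and 10.11 on the control arrays. Here every mutant array lay above every control array, by a margin far smaller than the spread within either group. The difference was 0.31 ± 0.12 (log2 ± SE), or 1.24-fold (95% interval 1.02 to 1.5), and did not pass (limma adjusted p = 0.444). Cdc42 and Rhoa, paralogous GTPases that share effectors, thus had estimates of opposite sign. The brighter Rhoa probe gave only 0.01 without mutant 3 and 0.02 without control 3, so the contrast rests mainly on the dimmer one.

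**Figure D1:**
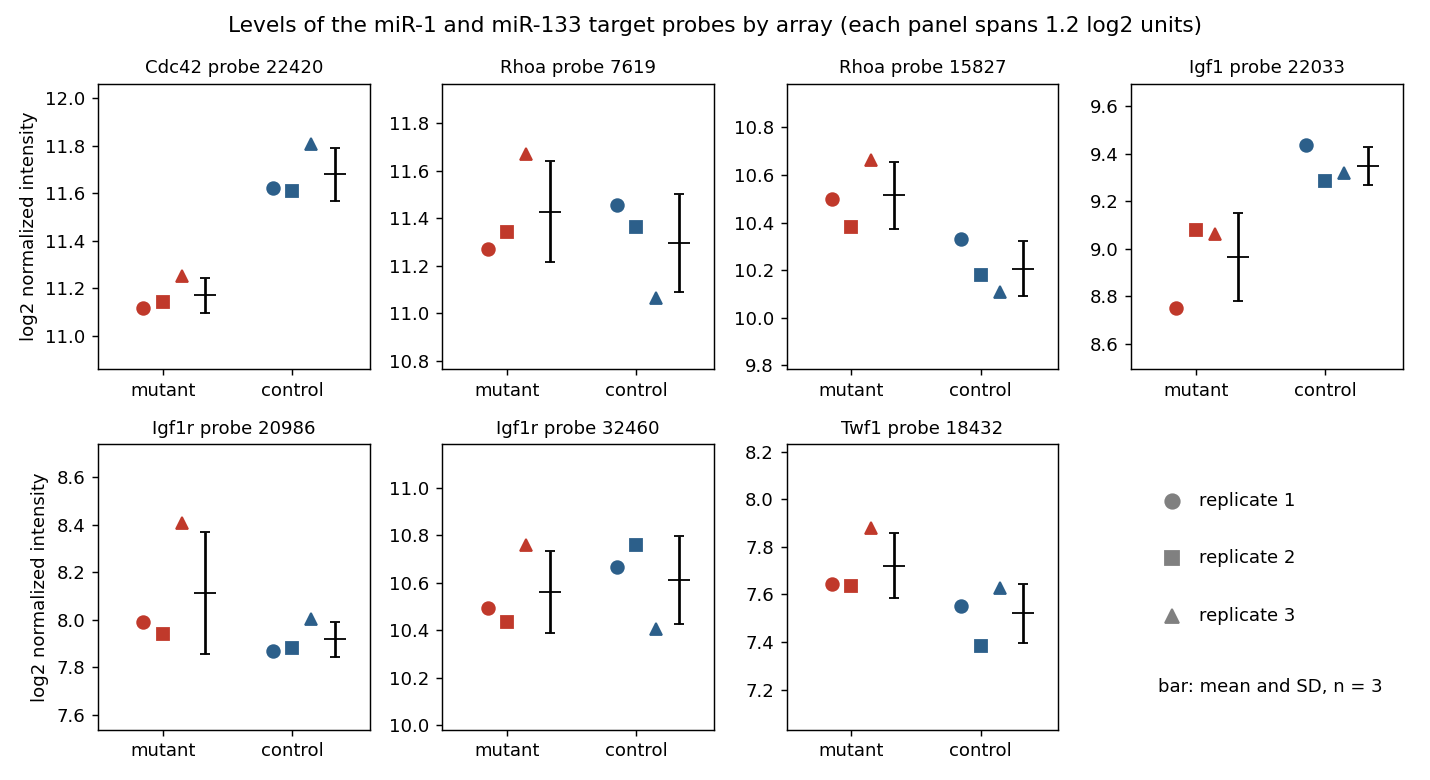
Log2 normalized intensity (vertical axis) of each member probe in mutant hearts (left, red) and control hearts (right, blue), 1 symbol per array, with the mean and SD of 3 arrays in black. The 3 mutant arrays lie below the 3 control arrays for Cdc42 and Igf1, and above them for Rhoa probe 15827 and, by 0.01, for Twf1.

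Igf1, the secreted ligand insulin-like growth factor and a reported miR-1 target, also had lower values in the mutant. Its log2 levels were 8.75, 9.08 and 9.06 on the mutant arrays, against 9.44, 9.29 and 9.32 on the control arrays, and the groups did not overlap. Mutant 1 lay apart from the other mutant arrays. The mutant level was 0.766 of the control level (95% interval 0.627 to 0.937), a log2 difference of -0.38 ± 0.12 (SE). The test was not passed (limma adjusted p = 0.368). Without mutant 1 the difference was -0.28.

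Igf1r, the receptor tyrosine kinase for Igf1 and a reported target of both families, gave no consistent difference. Its brighter probe (number 32460) read 10.49, 10.43 and 10.76 on the mutant arrays, against 10.67, 10.76 and 10.40 on the control arrays. Those ranges overlapped almost completely, with a difference of -0.05 ± 0.14 (log2 ± SE, limma adjusted p = 0.929) and a 95% interval in fold of 0.769 to 1.22. The dimmer probe (number 20986), listed under another accession, read 7.99, 7.94 and 8.41 on the mutant arrays, against 7.87, 7.88 and 8.004 on the control arrays. Mutant 3 was the single high array there. Its difference was 0.20 ± 0.14 (limma adjusted p = 0.673) and 0.05 without mutant 3.

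Twf1, the actin monomer-binding protein twinfilin-1 and a reported miR-1 target, was the dimmest member, with spot means 3.62 to 5.25 times the local background. Its log2 levels were 7.65, 7.64 and 7.88 on the mutant arrays, against 7.55, 7.38 and 7.63 on the control arrays. The lowest mutant array lay 0.01 above the highest control array. The difference was 0.20 ± 0.12 (log2 ± SE), or 1.15-fold (95% interval 0.948 to 1.39), and did not pass (limma adjusted p = 0.598). The offset of 50 added in the background correction pulls the differences of such dim probes towards 0, and in the authors' normalized intensity it was 0.27.

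No member probe passed the test at an adjusted p under 0.05, which 8 of the 17557 probes did (0.0456%), 5 higher (0.0285%) and 3 lower (0.0171%). At an unadjusted p under 0.05 there were 3 of the 7, namely Cdc42 and Igf1 lower and Rhoa probe 15827 higher in the mutant, where 9.9% of all probes did so (1738), 3.42% lower and 6.48% higher. The groups did not overlap in 4 of the 7, 2 lower and 2 higher, where 15.4% of all probes did so, 5.91% lower and 9.44% higher. The 7 were chosen with earlier results on these arrays known, and these counts are a description. All 7 were above background on all 6 arrays. The upper bounds of the intervals lay under 2-fold for every member probe, at most 1.5-fold, and the lower bounds above 0.5, at least 0.595.

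**Figure D2:**
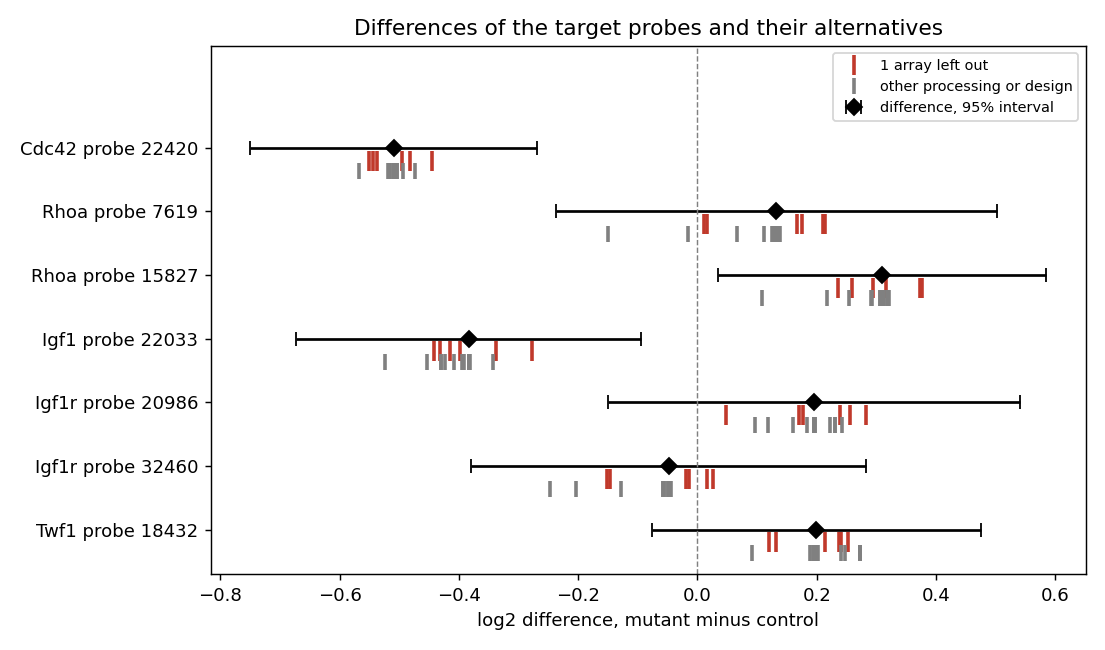
Log2 difference, mutant minus control (horizontal axis), of the 7 member probes, with the 95% interval of the limma fit in black, the 6 values with 1 array left out in red and the 14 other settings in grey. Cdc42 and Igf1 stay below 0 in every setting drawn, Rhoa probe 15827, Igf1r probe 20986 and Twf1 stay above it, and the brighter probes of Rhoa and Igf1r fall on both sides.

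Cdc42 did not follow the axis that set control 3 beside the mutants, for control 3 had its highest level, 11.81. Without control 3 the Cdc42 difference was -0.45, and without mutant 3 it was -0.55. For Igf1 these values were -0.40 and -0.43, for Rhoa probe 15827 they were 0.26 and 0.24, for Twf1 0.25 and 0.12, and for Igf1r probe 32460 both were -0.15. Between 74.1% and 78.2% of the 36227 spots per array were above background. The cardiomyocyte markers were present: 5 of 6 were above background on all arrays, and the sixth, Myh6, on 4.

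**Figure D3:**
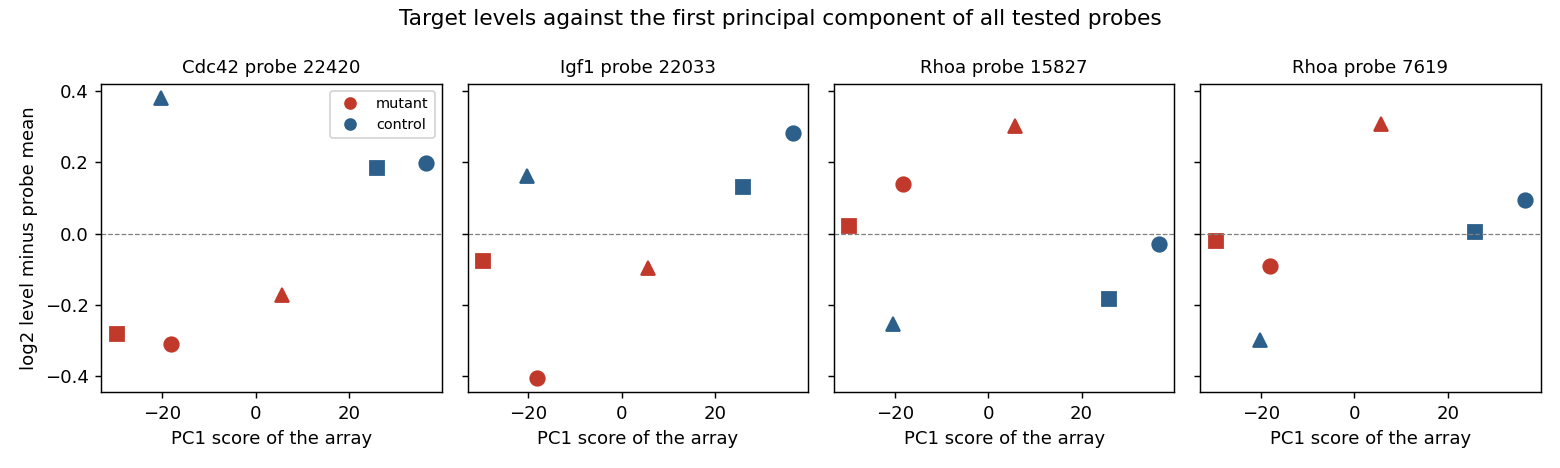
Log2 level minus the probe's mean over the 6 arrays (vertical axis) against the array's score on the first principal component (horizontal axis) for Cdc42, Igf1 and both Rhoa probes, with mutant arrays in red and control arrays in blue, and circles, squares and triangles for replicates 1, 2 and 3. For Cdc42, control 3 lies above mutants 1 and 2 at the low end of the axis, where it is the only control. The high end holds only controls 1 and 2, so the groups cannot be compared there.

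The array titles hold a code that mutants 1 and 2 share with control 1, while the other arrays have codes of their own. What the code stands for is not stated. Within those 3 arrays the differences were -0.49 for Cdc42, -0.52 for Igf1, 0.11 and -0.15 for Rhoa probes 15827 and 7619, 0.09 for Twf1, and 0.10 and -0.20 for Igf1r probes 20986 and 32460. Control 1 is the only control among them, so these are given as values without a test. The Rhoa probe 7619 thus changed sign there, and the Cdc42 value was close to that of all 6 arrays.

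Other cell types were followed through marker lists. For the 5 cushion mesenchyme markers the summed linear intensity was 6456 to 6875 in the mutants and 5650 to 6017 in the controls, without overlap. That sum was dominated by Vcan, a matrix proteoglycan at 0.62 ± 0.12 (log2 difference ± SE, limma adjusted p = 0.161) and 0.06 on its dimmer probe, while the other 4, Postn among them at -0.54 ± 0.13 (limma adjusted p = 0.256), had negative differences. The part of this in the Cdc42 and Igf1 values was not tested. The sums overlapped between the groups for endothelial, epicardial, leukocyte, liver, neural and skeletal muscle markers. Those of the cardiomyocyte and erythroid markers overlapped too, but rested largely on genes near the top of the scale. Actc1, Myl7, Hbb-bh1 and Hba-x had log2 levels of 14.9 to 15.3, and Tnnt2 had 13.8 to 14.7. Flagged spots were kept in these sums, on 6 arrays for Actc1, 5 for Myl7, 4 for Hbb-bh1 and 1 for Hba-x. Below that, the erythroid transcription factor gene Gata1 gave -0.69 ± 0.24 (limma adjusted p = 0.408) and the haem synthesis enzyme Alas2 -0.80 ± 0.44 (limma adjusted p = 0.588). Of the other tested erythroid markers, Hba-a1 gave -0.14, Hba-x 0.06 and Hbb-bh1 0.05, the last by a probe other than the one in the sum. The myosin gene Myh6 gave 0.57 ± 0.14 (limma adjusted p = 0.275) without the flagged spot of control 3. With that spot kept, Myh6 read 6.50 to 6.58 in the mutants and 5.78 to 6.83 in the controls, so the groups overlapped. The other tested cardiomyocyte markers, Tnnt2, Nkx2-5 and Myh7, gave 0.37, -0.22 and -0.43. These genes were chosen after their values were seen, and their part in the members' values was not tested. Ptprc of leukocytes and Myog of skeletal muscle were above background on no array.

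Lists of other reported targets of the same miRNAs, without the 5 measured members, held genes on both sides of 0. Of 29 tested genes on a list of reported miR-1 and miR-206 targets, 15 were above and 14 below 0, with a median log2 difference of 0.007, against 51.2% above 0 and a median of 0.005 over all 14986 genes tested. None passed, where 0.0534% of all genes did by their brightest probe. The count above 0 was 19 of 27 with the title code as a fixed block, with a median of 0.14. The smallest p belonged to Slc8a1, the sodium-calcium exchanger of cardiomyocytes, at 9.44, 9.46 and 9.77 on the mutant arrays, against 8.80, 8.82 and 9.004 on the control arrays. The groups did not overlap, and the difference was 0.68 ± 0.13 (log2 ± SE, limma adjusted p = 0.16), although the dimmer probe of the gene gave 0.08. With the title code as a fixed block, which leaves control 1 as the only control, the Slc8a1 difference was 0.64. Cnn3, an actin-binding calponin, gave -0.26 ± 0.09 (limma adjusted p = 0.406).

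Of 25 tested genes on the list of miR-133 targets, 11 were above and 14 below 0, with a median of -0.05, and none passed. The count above 0 was 7 of 25 without control 1, 8 without mutant 2 and 15 with the title code as a fixed block. At an unadjusted p under 0.05 there were 2 lower and 2 higher (16%), against 10.1% of all genes tested by their brightest probe. Kcnd2, a potassium channel subunit of the transient outward current, read 6.71, 6.50 and 6.25 on the mutant arrays, against 7.29, 7.43 and 7.96 on the control arrays. That is a difference of -1.07 ± 0.20 (log2 ± SE, limma adjusted p = 0.161). The probe was above background on 2 of 3 mutant arrays and on all 3 control arrays, and its size depended on the offset, at -1.90 with the subtracted intensity and -1.92 in the authors' normalized intensity. With the title code as a fixed block, which leaves control 1 as the only control, the Kcnd2 difference was -0.68. Nfatc4, a calcineurin-responsive transcription factor, gave -0.83 ± 0.18 (limma adjusted p = 0.21), with -0.49 for its dimmer probe. The higher genes, named after their values were seen, were the potassium channel gene Kcnq1 at 0.87 ± 0.22 (limma adjusted p = 0.257) and the transcription factor gene Sp1 at 0.36 ± 0.11 (limma adjusted p = 0.368).

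Genes that act with the members were read in 5 lists, and none of their genes passed. Regulators and effectors of Cdc42 and Rhoa had 19 of 35 above 0 and a median of 0.01. Iqgap1, a scaffold that binds active Cdc42 and links it to actin, read 9.83, 9.72 and 9.85 on the mutant arrays, against 9.30, 9.12 and 9.05 on the control arrays, so that the groups did not overlap. Its difference was 0.64 ± 0.11 (log2 ± SE, limma adjusted p = 0.141). Arhgap1, a GTPase-activating protein that switches Cdc42 off, read 9.25, 9.31 and 9.29 on the mutant arrays, against 8.90, 8.87 and 8.92 on the control arrays. Its difference was 0.39 ± 0.08 (limma adjusted p = 0.209).

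In the insulin-like growth factor pathway 13 of 27 genes were above 0, with a median of -0.005. The binding protein Igfbp4 gave -0.47 ± 0.17 (log2 ± SE, limma adjusted p = 0.415) and its dimmer probe -0.15. The insulin receptor Insr gave 0.47 ± 0.20 (limma adjusted p = 0.506), but its dimmer probe -0.11, and the first turned to -0.04 with the title code as a fixed block. Around Hdac4, whose class II deacetylases hold Mef2 factors in check, 18 of 25 partner genes were above 0, with a median of 0.07. Hdac1 gave 0.31 ± 0.11 (limma adjusted p = 0.413) and Hdac5, a class II member, 0.36 ± 0.18 (limma adjusted p = 0.564). Without control 1 that count was 12 of 25.

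Around Twf1, a list of actin monomer and capping proteins had 18 of 20 genes above 0, with a median of 0.18. It also held Arp2/3 nucleator subunits and other actin regulators. The count was 15 to 20 and the median stayed positive in the 20 settings tried. At an unadjusted p under 0.05 there were 4 of the 20, all higher. Of all 14986 genes tested, by their brightest probe, 10.1% did so, 975 higher and 540 lower. Arpc5, a subunit of the Arp2/3 actin nucleator, gave 0.35 ± 0.11 (log2 ± SE, limma adjusted p = 0.365). Cap1, which recycles actin monomers with cofilin, gave 0.43 ± 0.15 (limma adjusted p = 0.392). The other two, named after their values were seen, were Arpc1a of the same nucleator at 0.45 ± 0.18 (limma adjusted p = 0.491) and Cap2, a paralogue of Cap1, at 0.56 ± 0.23 (limma adjusted p = 0.498). In the pentose phosphate pathway, whose first enzyme is G6pdx, 3 of 11 genes were above 0, and the median was -0.07. Me1, a cytosolic NADPH source counted in this list, gave 0.56 ± 0.10 (limma adjusted p = 0.152) and passed without control 3 (0.61, limma adjusted p = 0.0469), and the transaldolase Taldo1 -0.34 ± 0.17 (limma adjusted p = 0.567). The median of this list turned positive, to 0.05 without mutant 3 and 0.01 without control 3. It was 0.12 with array weights and 0.10 with the title code as a fixed block, each with 7 of 11 genes above 0.

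**Figure D4:**
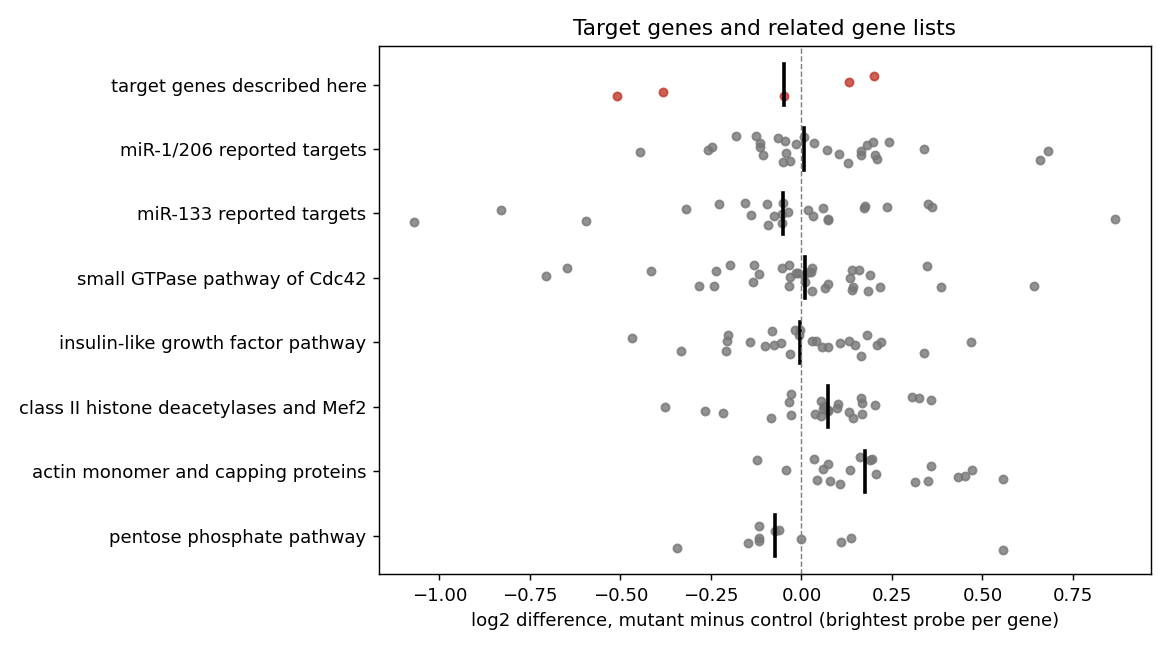
Log2 difference, mutant minus control (horizontal axis), of the brightest tested probe of each gene, for the 5 measured target genes (red) and for 7 related lists (grey), with the list median as a black bar. The lists straddle 0, and 18 of 20 genes on the actin monomer and capping list, which also holds actin nucleator subunits, lie above it.

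For each member's brightest probe, the 2 genes of 13165 compared with the most similar profile over the 6 arrays are given as a description, since so many candidates over so few arrays yield high values readily. Cdc42 was most like Ada (Pearson r = 0.996) and Nek6 (r = 0.992), with log2 differences of -0.66 and -0.54. Igf1 was most like Tmem236 (r = 0.998) and Fbln7 (r = 0.99), at -0.32 and -0.41. Rhoa was most like Hoxb5 (r = 0.999) and Daam1 (r = 0.99), Igf1r like Nrd1 (r = 0.985) and Cldn9 (r = 0.983), and Twf1 like Hid1 (r = 0.988) and Stim1 (r = 0.984). None of these 10 genes passed the test. The antisense gene Igf1os, named as the opposite strand of Igf1 and chosen from the annotation rather than by the naming rule, gave -0.02 ± 0.11 (log2 ± SE, limma adjusted p = 0.961) with spot means 1.40 to 1.84 times the local background, and above background on 3 of 6 arrays.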

How the data were processed

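Each deposited file of a single-colour CodeLink array gave spot mean intensity, local background intensity, background-subtracted intensity and an intensity the authors had normalized within the array, per the file headers. No source names the scanner or its software. Spot means were corrected with normexp (offset 50), quantile-normalized and expressed as log2 values in limma 3.58.1 under R 4.3.3. Spots flagged C, I or M were left out of the tests and kept in the marker sums. Probes with 1 gene, above background on at least 3 of 6 arrays and usable on at least 2 per group were tested with lmFit and eBayes, two-sided, with Benjamini-Hochberg adjustment over 17557 probes. The number of arrays limits the precision. Members, lists and tests were chosen with earlier results of these data known, and lists came from general knowledge. Named genes were the members, Dicer1, and per list the passing genes or the 2 with the smallest p.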

Additional observations from a re-analysis of the deposited data

How the results depend on the processing

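Of 140 alternative values of the 7 member probes (20 settings each, all planned), 134 kept their direction and their side of the threshold. Settings that changed only the filter, limma's variance prior or the title-number block left the difference as it was, so direction could not change there. The values from the series' value table repeated those from the authors' normalized intensity. With array weights, which gave control 2 a weight of 6.44 and mutant 3 one of 0.288, Cdc42 (-0.47, limma adjusted p = 0.0084) and Igf1 (-0.34, limma adjusted p = 0.041) passed. So did 4274 of the 17557 probes, and the Rhoa probe 7619 turned to -0.0151. With the title code as a fixed block, which compares 3 arrays, it was -0.15. Igf1r probe 32460 turned to 0.0157 without mutant 2 and 0.0267 without control 2, and the mean of both Igf1r probes was 0.0736. The adjusted p ran from 0.0084 to 0.803 for Cdc42 and from 0.041 to 1.0 for Igf1.

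The number of probes called, 8, was 4 with the subtracted intensity, 4 with the authors' normalized intensity and 5 with the series' value table. It was 1860 with the title code as a fixed block and 0 with the title number as replicate block, where 1228 probes had an unadjusted p under 0.05 and Cdc42 an adjusted p of 0.532. With 1 array left out it ran from 0 to 374. It was 374 without control 3, 1 without mutant 3 and 0 without each of the others, with 782 to 1397 probes at an unadjusted p under 0.05. Deviations from the group means of same-numbered arrays correlated at 0.01, -0.48 and -0.38, and those of differently numbered arrays from -0.50 to 0.56. Deviations from a mean of 3 arrays depend on each other, so these values cannot decide whether the title numbers pair the arrays. The cause of these changes was not tested. Among the 14 list genes named, array weights brought 12 past the threshold, the title code as a fixed block Slc8a1 and Kcnd2, and leaving out control 3 Me1.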
